A study of Mus musculus with 2 samples.

Results

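The genes described here encode 10 enzymes of glycolysis: the hexokinases Hk1 and Hk2, the phosphofructokinase subunits Pfkl and Pfkp, the aldolase Aldoa, the dehydrogenase Gapdh, the kinase Pgk1, the enolase Eno1, the pyruvate kinase Pkm and the lactate dehydrogenase Ldha. They were chosen by symbol, from 32245 gene symbols in the count matrices, and all 10 were present. On the GRCm38 build, GENCODE places Hk1 at chr10:62268855-62379908, Hk2 at chr6:82725025-82774454, Pfkl at chr10:77986947-78010083, Pfkp at chr13:6579768-6648777, Aldoa at chr7:126795234-126800751 and Gapdh at chr6:125161715-125166467, all on the minus strand. Pgk1 lies at chrX:106187100-106203699, Eno1 at chr4:150236721-150248879, Pkm at chr9:59656368-59679375 and Ldha at chr7:46841475-46855627, all on the plus strand. The symbol Aldoa stands for 2 gene identifiers, and the first of them (ENSMUSG00000030695) held 3908 Sham and 8598 TBI UMIs against 0 and 2 for the second. The data are single-cell RNA-seq of the dorsal meninges, the membranes over the upper brain. The Sham library was made from the meninges of 5 male C57BL/6 wild-type mice (C57BL/6J in the study's methods) pooled 1 week after a Sham procedure, and the TBI library from 5 such mice pooled 1 week after a mild closed-skull traumatic brain injury. The mice were 10 weeks old by the sample descriptions, and a second field of the labels gives a range that begins at that age. Sorting kept live single cells without selecting a cell type, so every class below comes from the same 2 suspensions.

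Each group is 1 library. No test between Sham and TBI was therefore possible, and the 5 animals of a pool cannot be told apart. Every value below is a count of unique molecular identifiers (UMIs), summed over the cells of a class and expressed per 1e6 UMIs of that class (CPM). The 95% intervals are exact Poisson or binomial intervals for counting error only. They do not cover differences between animals or between preparations. A ratio is the log2 of the TBI over the Sham CPM, and a ratio is called past the fold when it is at or beyond 0.5 in either direction, for genes that had 100 or more UMIs in that class over both libraries.

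Glycolysis splits glucose into pyruvate in the cytosol and yields ATP without oxygen. Hexokinases trap glucose as its phosphate, phosphofructokinase commits it to the pathway, and aldolase splits the sugar. GAPDH and PGK1 carry out the oxidation and the first ATP-forming step, enolase and pyruvate kinase the last steps to pyruvate, and lactate dehydrogenase interconverts pyruvate and lactate. Several steps have isozymes whose use differs between tissues: Hk2 is the inducible hexokinase known from muscle and activated immune cells, and Ldhb is the lactate dehydrogenase subunit typical of oxidative tissue. Many of these genes are textbook targets of hypoxia-inducible factor, which binds a core written ACGTG or GCGTG.

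The promoters were read for that core because it is what the family is known to share. The window ran from 250 bases before to 50 bases after each RefSeq transcription start (build GRCm38.p6), both strands were searched, and all 10 genes matched an entry. At least 1 window of each of the 10 genes held ACGTG or GCGTG, and so did 46.7% of 27025 genes and 10 of 17 other glycolytic enzymes with an entry. Counted by window, 14 of 17 windows of these genes and 43.8% of all 32851 windows held either core. ACGTG was found for 7 of the 10 and for 21.8% of all genes (19.6% of windows), and GCGTG for 6 and for 35.2% (32.4% of windows). The E-box CACGTG, which contains ACGTG on either strand, was found for Ldha alone among the 10 and for 8.09% of all genes (7.15% of windows). A stretch around 1 match outside annotated exons is shown for 8 of the genes, 5′ to 3′ on the strand of the gene. Capitals mark the core or its reverse complement (CACGT or CACGC), and in Ldha the E-box.
Hk2, chr6:82774490-82774518, minus strand, core beginning 52 bases before the start: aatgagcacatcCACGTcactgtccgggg
Pfkl, chr10:78009890-78009918, minus strand, core beginning 99 bases before the start: atttgtagactgGCGTGcgctccgccttt
Pfkp, chr13:6648778-6648806, minus strand, core beginning 23 bases before the start: cgctcgggcgggGCGTGggcggctcctgc
Aldoa, chr7:126799364-126799392, minus strand, core beginning 126 bases before the start: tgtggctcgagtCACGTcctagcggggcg
Gapdh, chr6:125165811-125165839, minus strand, core beginning 54 bases before the start: gttcggagcccaCACGCttggtGCGTGca
Pgk1, chrX:106186938-106186966, plus strand, core beginning 150 bases before the start: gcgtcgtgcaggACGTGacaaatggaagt
Eno1, chr4:150236466-150236494, plus strand, core beginning 230 bases before the start: actgccttattaGCGTGagctggacagta
Ldha, chr7:46845647-46845676, plus strand, core beginning 145 bases before the start: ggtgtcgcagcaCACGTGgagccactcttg
The stretches of Hk2, Pfkp, Pgk1 and Eno1 overlapped no annotated transcript, while those of Pfkl, Aldoa, Gapdh and Ldha lay within introns of another transcript of the gene, and that of Aldoa also within a transcript of Fam57b. A match is a description of letters and does not show that a factor binds there.

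The Sham matrix held 2699 barcodes and the TBI matrix 4349, of which 2043 and 3773 cells passed the filters, with 7866611 and 13940740 UMIs. The methods state fewer starting cells for each library than the matrices hold. The cells were grouped into 25 clusters without using the metabolic genes. By markers, 21 clusters were named, giving 18 classes, and 4 clusters with 218 Sham and 695 TBI cells stayed unnamed and are called by their leading gene. The names were rebuilt here and are written "-like". The libraries differed in free RNA: 22.4% of Sham and 9.91% of TBI barcodes were past the hemoglobin limit and removed, and Ttr, the leading transcript of choroid plexus, stood at 63.2 CPM in Sham and 210 CPM in TBI macrophage-like cells. The part of these differences in the values below was not tested. The libraries shared 14 barcodes among the cells kept. Each value is per UMI of its class, so it does not scale with the number of cells in that class. The mix of cells within a class and free RNA from other cells can still enter it, and their part was not tested.

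The 10 enzymes together held 18727 UMIs (0.238%) in the Sham cells and 36171 (0.259%) in the TBI cells, and their share differed widely between classes. Choroid plexus-like cells, the secretory epithelium that makes cerebrospinal fluid, were highest, with 8355 CPM (8047 to 8671) in Sham against 9193 (8982 to 9407) in TBI. Pineal gland-like cells, which carried the melatonin-pathway gene Tph1 among their leading genes, followed with 7220 (6554 to 7936) and 6683 (6361 to 7017). Over the 21 classes with at least 50 cells the median was 2034 CPM as a mean of both libraries, so that choroid plexus-like cells stood at 4.31 times and pineal gland-like cells at 3.42 times the median. The lowest class, the Snhg11-led cluster, had 557 CPM in Sham against 899 in TBI, and the highest class was 12.0 times the lowest. The Snhg11-led cluster also held the most of the nuclear RNA Malat1, 118812 CPM in Sham against 90377 in TBI against 339 and 628 in choroid plexus-like cells. The part of that RNA in the low enzyme level was not tested.

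**Figure D1:**
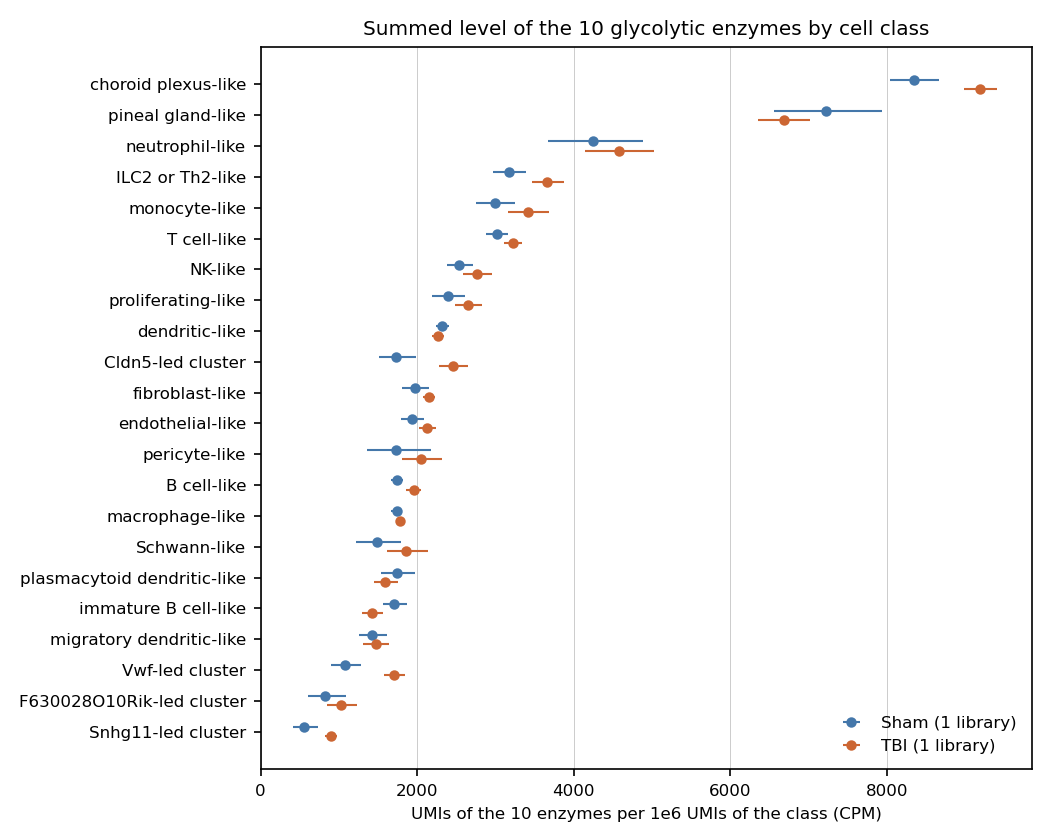
UMIs of the 10 enzymes per 1e6 UMIs of each class (horizontal axis, from 0) in the Sham library (blue) and the TBI library (orange), 1 library each; bars are exact Poisson 95% intervals for counting error. Choroid plexus-like and pineal gland-like cells stand apart at 6683 to 9193 CPM, and the Snhg11-led cluster is lowest in both libraries.

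Between these ends lay the immune and vascular classes. ILC2 or Th2-like cells had 3176 CPM in Sham against 3665 in TBI, monocyte-like cells 2995 and 3416, and T cell-like cells 3016 and 3222. NK-like cells had 2539 and 2765, and dendritic-like cells 2320 and 2263. Fibroblast-like cells stood at 1976 and 2151, endothelial-like cells at 1937 and 2132, B cell-like cells at 1739 and 1955, and macrophage-like cells at 1738 and 1784. Neutrophil-like cells, of which there were 42 in all and which were left out of the order, had 4249 and 4575 CPM. For the order of the means, here with neutrophil-like cells put back in, each class was given the span of its intervals over both libraries. The spans of neighbouring classes overlapped, apart from the steps from choroid plexus-like to pineal gland-like and from pineal gland-like to neutrophil-like cells. Taken library by library, neutrophil-like and ILC2 or Th2-like cells overlapped in neither, and T cell-like and NK-like cells overlapped in neither.

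The pineal gland-like values rested on few cells. There were 38 cells in Sham and 100 in TBI, and in Sham the 3 cells with the most UMIs of a gene held 55.9% of the Aldoa UMIs, 60.5% of the Gapdh UMIs and 76.6% of the Pkm UMIs. The same class held Ttr at 41709 CPM in Sham against 3918 in TBI, and the part of that RNA in the enzyme values was not tested. With finer clusters only 14 Sham and 30 TBI cells kept the pineal name. Cspg5 and Mgarp, leading genes of the main cluster, were then among those of an unnamed cluster of 9 and 47 cells. Gng13, another, was among those of an unnamed cluster of 33 and 65 cells. The part of such a mix in the enzyme values was not tested.

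The high level of choroid plexus-like cells was shared by most of the pathway. Of the 10 enzymes, 8 stood at 2 or more times the median of the other classes there, against 18.1% of 11704 genes that had 100 or more UMIs, and the median fold was 4.50 for the enzymes and 0.66 for all genes. Pgk1 had the largest fold, 7.72, with 780 CPM in Sham against 916 in TBI. Pkm was at 5.75 times, Eno1 at 5.64 times, Aldoa at 5.02 times and Gapdh at 4.38 times. Ldha, at 1.72 times, did not reach the fold, and Hk2 had no UMI in either library. In pineal gland-like cells the same 8 enzymes reached the fold, against 25.7% of all genes, with a median of 3.43 for the enzymes and 1.05 for all genes. Nuclear genes of oxidative phosphorylation were high in both classes too. Their sum was 74899 CPM in Sham against 77426 in TBI choroid plexus-like cells, and 60296 and 45672 in pineal gland-like cells. It was 22342 and 23310 in T cell-like and 20189 and 19731 in macrophage-like cells. The enzyme sum over that sum was 0.112 and 0.119 in choroid plexus-like and 0.120 and 0.146 in pineal gland-like cells. It was 0.135 and 0.138 in T cell-like and 0.086 and 0.090 in macrophage-like cells.

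**Figure D2:**
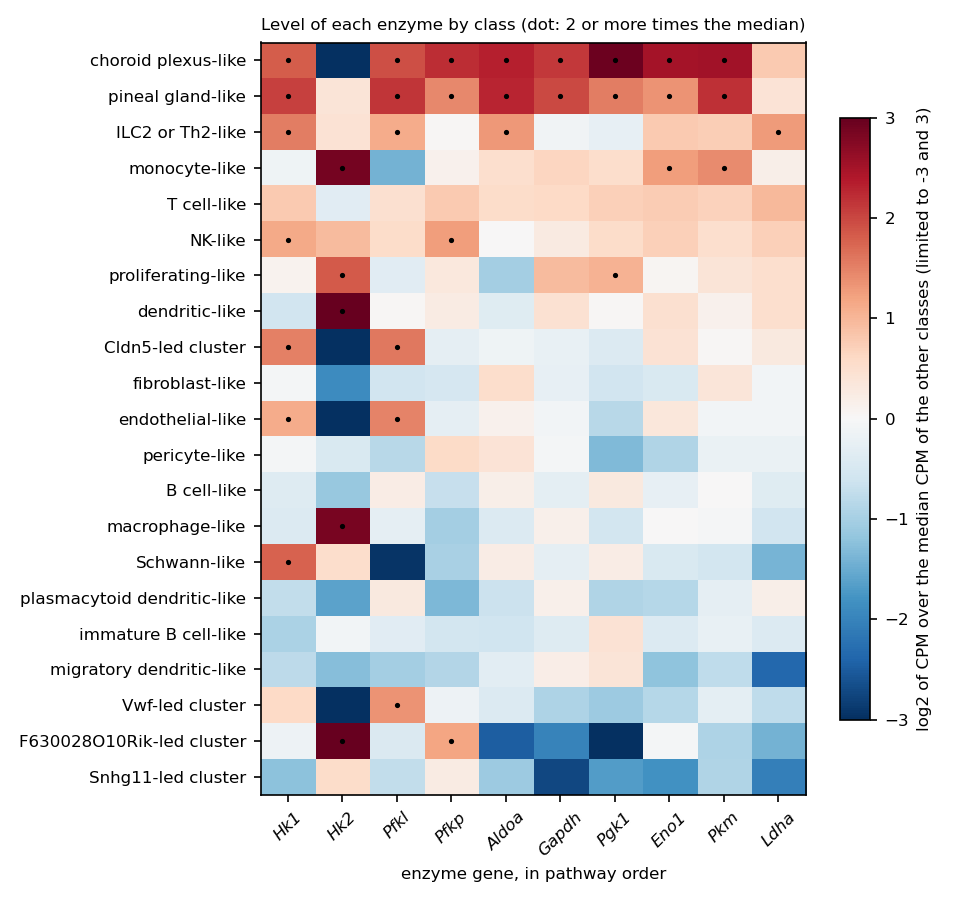
Level of each enzyme (columns, pathway order) in each class (rows, from highest to lowest sum) as the log2 of its CPM over the median CPM of the other classes, limited to -3 and 3; dots mark 2 or more times that median. Choroid plexus-like and pineal gland-like cells carry 8 dots each, and the dots of Hk2 lie in myeloid classes, proliferating-like cells and the F630028O10Rik-led cluster.

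Other classes were high for single steps of the pathway. In ILC2 or Th2-like cells 4 enzymes reached the fold (Hk1, Pfkl, Aldoa and Ldha), against 13.2% of all genes, and Ldha was highest there of all classes, at 670 CPM (577 to 773) in Sham against 884 (788 to 988) in TBI. T cell-like cells came next with 581 (520 to 648) and 665 (614 to 720), which overlapped it in Sham. In monocyte-like cells 3 enzymes reached it (Hk2, Eno1 and Pkm), against 13.1% of all genes. Hk2 rested there on 7 Sham and 6 TBI UMIs, and with cells assigned by their own markers 1 of the 3 remained at the fold. In endothelial-like cells, the lining of blood vessels, 2 of the 10 enzymes reached the fold (Hk1 and Pfkl), against 23.5% of all genes. The Cldn5-led cluster had the same 2, against 23.3%, so neither count exceeded the share of all genes. In NK-like cells 2 of 10 reached it (Hk1 and Pfkp), against 13.1%.

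Hexokinase, which traps glucose in the cell, differed between classes in the isozyme used. Hk2 stood at 42.0 CPM (32.0 to 54.2) in Sham and 41.7 CPM (32.3 to 52.9) in TBI dendritic-like cells. Macrophage-like cells had 26.1 CPM of Hk2 (18.6 to 35.5) in Sham and 42.3 (35.8 to 49.6) in TBI. B cell-like cells had 2.69 CPM on 3 UMIs in Sham and 2.41 on 2 UMIs in TBI, so their intervals lay below those of the macrophage-like and dendritic-like cells in both libraries. No Hk2 UMI was found in endothelial-like or choroid plexus-like cells. A floor of 3 counts would stand at 7.94 CPM in Sham against 4.48 in TBI endothelial-like cells, and at 9.0 and 3.81 in choroid plexus-like cells. This floor is lower than the upper limit of the exact interval for a count of 0.

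The highest Hk2 level of any class, 83.9 and 80.7 CPM, was that of the F630028O10Rik-led cluster, on 5 Sham and 9 TBI UMIs, and its intervals overlapped those of the dendritic-like cells.

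The share of cells with an Hk2 UMI followed depth as well as level. It was 31.2% of 138 Sham and 25.6% of 195 TBI dendritic-like cells, and 10.5% of 333 and 15.4% of 721 macrophage-like cells. It was 0.82% of 365 and 0.68% of 292 B cell-like cells, and 0 of 192 and 0 of 300 endothelial-like cells. Dendritic-like cells were the deepest, with a median of 10964 and 8334 UMIs per cell against 2973 and 4486 in macrophage-like cells, 3082 and 2660 in B cell-like cells and 1831 and 2026 in endothelial-like cells. After each cell was thinned to 1000 UMIs, which left out 5 and 11 dendritic-like and 80 and 88 macrophage-like cells, the shares were 5.26% and 3.80% in dendritic-like and 2.37% and 3.79% in macrophage-like cells. Both lay near those of a single UMI per cell and their intervals overlapped, so no order between these classes is read from the thinned shares. In thinned B cell-like cells, after 38 and 24 cells were left out, the share was 0.31% and 0%.

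The hexokinase UMIs divided between isozymes accordingly. Hk2 gave 54.1% (44.3 to 63.7) of the UMIs of Hk1, Hk2 and Hk3 in Sham and 53.6% (44.5 to 62.6) in TBI dendritic-like cells. In macrophage-like cells Hk2 gave 25.8% (19.1 to 33.4) and 34.1% (29.7 to 38.8), and the largest share was that of Hk3, a hexokinase of blood cells, with 48.4% and 41.2%. Hk1, the widely expressed isozyme, gave 100% and 98.4% in endothelial-like and 100% and 96.8% in choroid plexus-like cells.

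**Figure D3:**
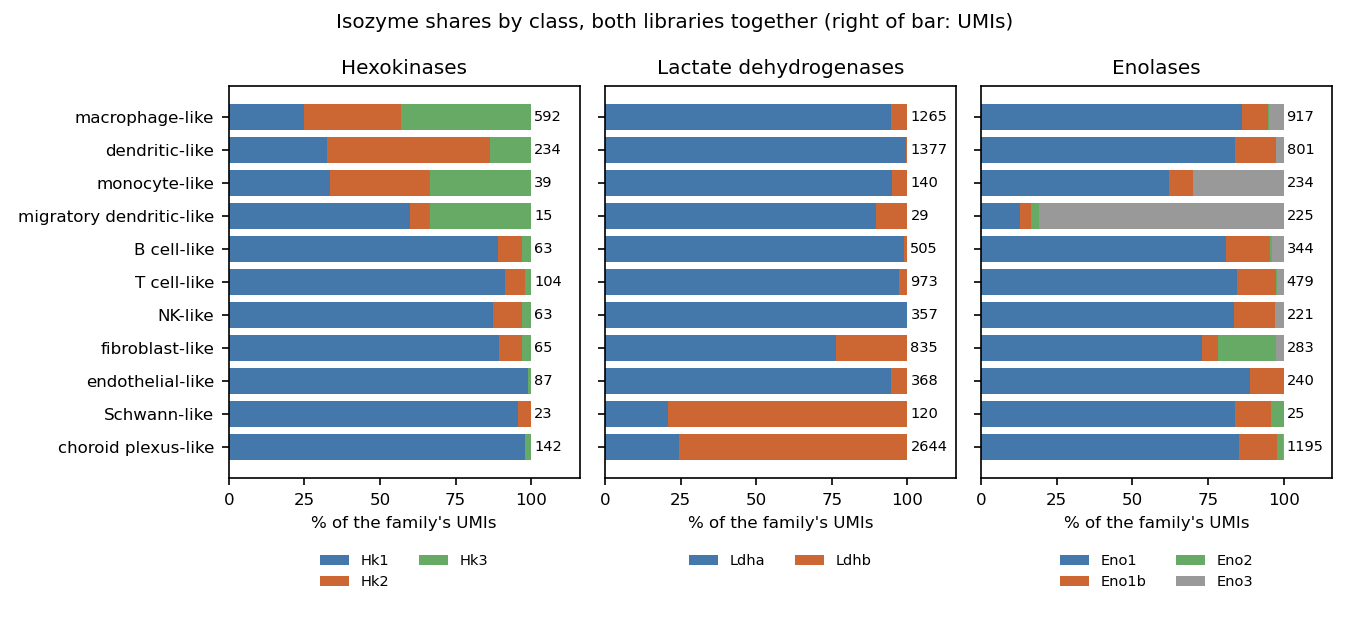
Shares of isozymes (horizontal axis, percent of the UMIs of the family, both libraries together) in 11 classes for the hexokinases, lactate dehydrogenases and enolases; the number right of each bar is the UMIs behind it. Hk2 and Hk3 appear mainly in myeloid classes, Ldhb in choroid plexus-like and Schwann-like cells, and Eno3 in migratory dendritic-like and monocyte-like cells.

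Phosphofructokinase, the committing step, was a mixture of subunits in every class with 50 or more UMIs of the family. Pfkl, the liver-type subunit, was the larger part in endothelial-like cells, with 54.8% (38.7 to 70.2) in Sham and 64.2% (55.1 to 72.7) in TBI. Pfkp, the platelet-type subunit, was the larger part in NK-like cells, with 74.6% (62.5 to 84.5) and 69.4% (54.6 to 81.7). The Pfkp share of the endothelial-like cells, 38.1% and 26.8%, lay below that of the NK-like cells without overlap of the intervals in either library. In dendritic-like cells the Pfkp share was 52.7% (43.7 to 61.6) in Sham and 67.6% (60.1 to 74.5) in TBI.

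Aldoa gave nearly all aldolase UMIs. Its share of Aldoa and Aldoc was 87.8% at the lowest, in plasmacytoid dendritic-like cells, and 99.3% as a median of 20 classes. Aldoa was highest in choroid plexus-like cells (1960 CPM in Sham, 2421 in TBI) and pineal gland-like cells (2132 and 2149). ILC2 or Th2-like cells came next with 958 and 1176, and fibroblast-like cells had 565 and 699.

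Gapdh and Pgk1 had the same 3 classes at the top, choroid plexus-like, pineal gland-like and proliferating-like cells. Gapdh was at 2086 CPM in Sham against 2011 in TBI choroid plexus-like cells. It was at 893 and 916 in proliferating-like cells, 702 and 584 in dendritic-like cells, and 395 and 411 in B cell-like cells. Pgk1, the gene of the first ATP-forming step, was at 215 and 242 CPM in proliferating-like cells, 2.08 times the median of the other classes. Of the Gapdh copies, only Gm10358 (1 Sham and 2 TBI UMIs) and Gapdhs (0 and 0) were looked up.

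Enolase, which makes phosphoenolpyruvate, showed a class with a different isozyme. In migratory dendritic-like cells, the Ccr7-positive cells on their way to lymph nodes, Eno3 gave 81.6% of enolase UMIs in Sham and 80.3% in TBI, at 428 and 472 CPM. Eno1 gave 14.3% and 11.8% there. In monocyte-like cells Eno3 gave 23.8% and 37.0%, and in dendritic-like cells it stood at 6.41 and 6.84 CPM. Eno3 is the isozyme known from muscle. Eno1b, a near-identical copy of Eno1 with 226 Sham and 429 TBI UMIs against 1944 and 2798 for Eno1, could share reads with it, so the split between both is uncertain.

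Pyruvate kinase and lactate dehydrogenase end the pathway. Pkm stood at 1627 CPM in Sham against 1834 in TBI choroid plexus-like cells, and at 637 and 974 in monocyte-like cells, 2.68 times the median of the other classes. Ldha gave 22.4% (19.4 to 25.6) of lactate dehydrogenase UMIs in Sham and 25.2% (23.3 to 27.2) in TBI choroid plexus-like cells, where Ldhb stood at 1663 and 1832 CPM. In Schwann-like cells, the glia of peripheral nerve, the Ldha share was 11.6% (3.89 to 25.1) and 26.0% (16.6 to 37.2). It was 75.5% and 76.7% in fibroblast-like, 93.1% and 94.95% in macrophage-like and 99.8% and 99.2% in dendritic-like cells. The shares of the choroid plexus-like and Schwann-like cells lay below those of all 3 without overlap.

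The comparison of TBI with Sham asked how the injury bears on the meninges away from the injury site. The summed enzymes differed little within the 6 named classes with the most cells. In macrophage-like cells they were at 1738 CPM (1673 to 1805) in Sham against 1784 (1741 to 1829) in TBI, a log2 ratio of 0.04 (-0.03 to 0.10). Dendritic-like cells had a ratio of -0.04 (-0.10 to 0.03) and fibroblast-like cells 0.12 (-0.01 to 0.26), and those intervals held 0. The ratio was 0.10 (0.01 to 0.18) in T cell-like, 0.14 (0.01 to 0.27) in endothelial-like and 0.17 (0.07 to 0.26) in B cell-like cells. The median ratio of all genes with at least 100 UMIs lay between -0.02 and 0.01 in these 6 classes. Over all 21 classes the summed ratio was above 0 in 17 and below 0 in 4, with an interval above 0 in 9 and below 0 in 1, the immature B cell-like cells. The median of all genes was above 0 in most of the 21 as well, from -0.18 in the F630028O10Rik-led to 0.22 in the Vwf-led cluster. The sum of nuclear oxidative phosphorylation genes was also above 0 in most, from -0.40 in pineal gland-like cells to 0.39 in the Vwf-led cluster. The classes share their 2 libraries, so these are not 21 independent comparisons.

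**Figure D4:**
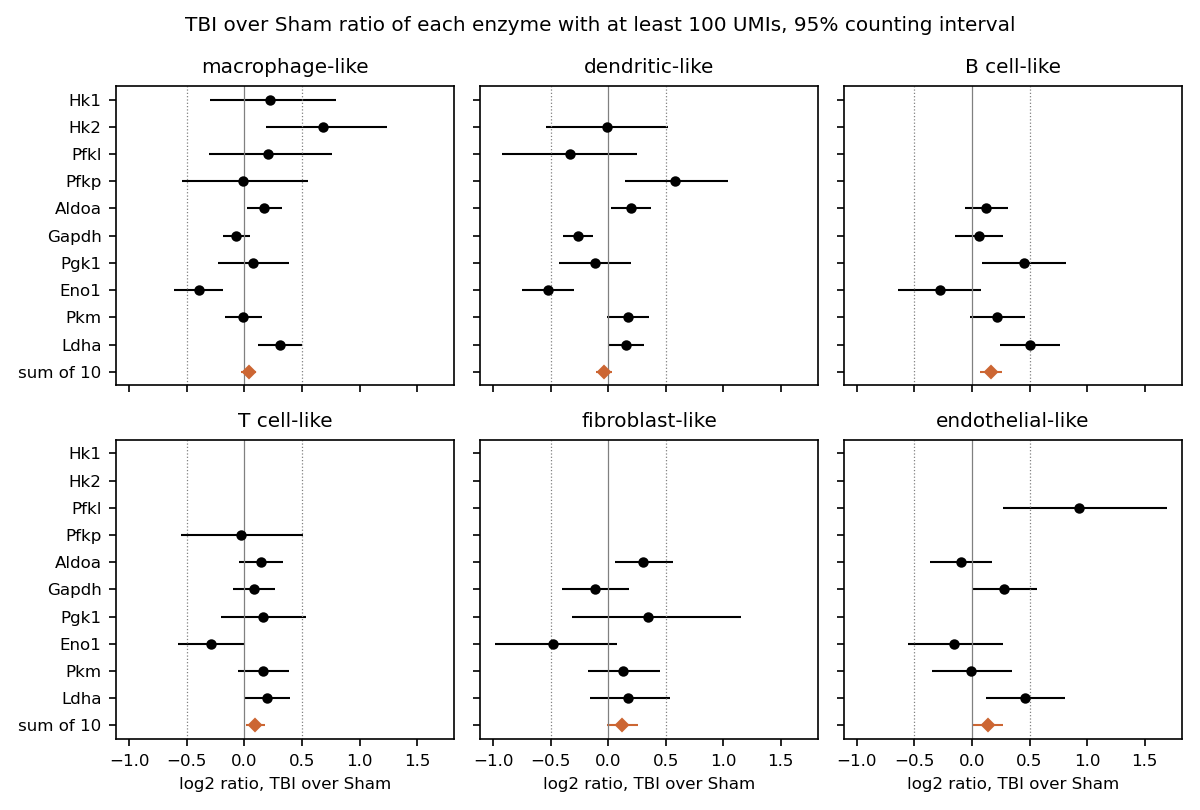
Log2 ratio of TBI over Sham CPM (horizontal axis) for each enzyme that had 100 or more UMIs there (black) and for the sum of all 10 (orange diamond) in 6 classes, with exact binomial 95% intervals for counting error; dotted lines mark the fold of 0.5. The sums lie between -0.04 and 0.17, and 5 of the enzyme ratios are past the dotted lines.

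Single enzymes passed the fold in 5 of 44 ratios over these 6 classes, 4 upward and 1 downward. Of 19620 ratios of all genes in the same classes, 4.23% were past it upward and 4.21% downward. In macrophage-like cells all 10 enzymes had enough UMIs, and Hk2 alone was past the fold upward and none downward, against 3.48% and 2.35% of all genes. Hk2 went from 40 UMIs (26.1 CPM) in Sham to 149 UMIs (42.3 CPM) in TBI, a log2 ratio of 0.68 (0.19 to 1.24). Ldha was at 203 CPM in Sham against 251 in TBI macrophage-like cells, a ratio of 0.31 (0.12 to 0.50). Gapdh and Pkm had ratios of -0.07 (-0.19 to 0.05) and -0.01 (-0.17 to 0.15). The immediate early genes Fos and Egr1, which cell dissociation can induce, were also past the fold upward in this class, and their part in the Hk2 value was not tested.

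The macrophage-like class was made of 3 clusters, whose shares differed between the libraries. The cluster led by Klra2, Cx3cr1 and Slamf9 was the largest in TBI, with 106 Sham and 271 TBI cells. That led by Ccl8, Cd209g and Cd209f was the largest in Sham, with 141 and 184 cells, and its median depth was 921 and 1088 UMIs per cell. The third, led by C5ar1, Fcrls and Folr2, had 86 and 266 cells. Hk2 was at 29.1 CPM in Sham against 49.6 in TBI in the Klra2-led cluster, a ratio of 0.75 (0.10 to 1.49). It was at 26.1 and 35.5 CPM in the C5ar1-led cluster, a ratio of 0.41 (-0.42 to 1.41), and rested on 2 and 9 UMIs in the Ccl8-led cluster. Within each of the 3 clusters the Hk2 value was higher in TBI, though in 2 of them the interval held 0.

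In dendritic-like cells 9 enzymes had enough UMIs, with 1 past the fold in each direction, against 3.36% of all genes upward and 2.56% downward. Pfkp was at 48.4 CPM in Sham against 72.7 in TBI, a ratio of 0.58 (0.14 to 1.04). That ratio was 0.30 as a mean over cells and 0.45 in cells with at least 500 genes, below the fold. Eno1 was at 266 CPM (240 to 295) in Sham against 185 (165 to 208) in TBI, a ratio of -0.52 (-0.75 to -0.30). With its near-identical copy Eno1b counted in, the ratio was -0.47 (-0.68 to -0.27), and with cells assigned by their own markers Eno1 was at -0.45, both short of the fold. Gapdh was lower in TBI as well, at 702 against 584 CPM, a ratio of -0.27 (-0.40 to -0.13). Hk2 had a ratio of -0.01 (-0.54 to 0.52), an interval that overlapped that of the macrophage-like cells. Of the dissociation genes, Atf3 was past the fold upward and Hspa1a and Hspa1b downward in this class.

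In B cell-like cells 6 enzymes had enough UMIs, and Ldha was past the fold upward and none downward, against 3.30% and 3.54% of all genes. Ldha was at 218 CPM (191 to 247) in Sham against 309 (272 to 349) in TBI, a ratio of 0.50 (0.25 to 0.76). The value lay at the fold itself, from 0.42 to 0.54 over the alternatives of processing. Pgk1 was at 114 and 156 CPM, a ratio of 0.45 (0.09 to 0.82). The dissociation genes Junb, Egr1 and Ier2 were past the fold upward in the same cells, and their part was not tested. In endothelial-like cells 6 enzymes had enough UMIs, and Pfkl was past the fold upward and none downward, against 3.85% and 3.80% of all genes. Pfkl went from 23 UMIs (60.8 CPM) in Sham to 79 UMIs (118 CPM) in TBI, a ratio of 0.93 (0.27 to 1.69). Ldha was at 267 and 369 CPM there, a ratio of 0.46 (0.12 to 0.81).

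No enzyme passed the fold in T cell-like cells (7 with enough UMIs, against 4.21% of all genes upward and 3.67% downward) or in fibroblast-like cells (6 with enough UMIs, against 7.23% and 9.88%). In T cell-like cells the ratios ran from -0.29 for Eno1 to 0.19 for Ldha. In fibroblast-like cells Aldoa was at 565 CPM in Sham against 699 in TBI, a ratio of 0.30 (0.06 to 0.56). Over the alternatives of processing Aldoa ran from 0.08 to 0.71 there and Pgk1 from 0.34 to 0.75, so both crossed the fold in some. The Sham fibroblast-like class held 66 cells against 447 in TBI. With coarser clusters, where Snhg11 was its first leading gene, it held 121 against 760. In the main clusters 3 of the 66 Sham cells held 37.5% of the Ldha UMIs of the class. The Ldha ratio there was 0.18 (-0.16 to 0.54), and it was -0.27 with finer clusters. It was 0.58 when the 3 cells with the most Ldha UMIs were left out of each library.

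While the sum of the other 9 enzymes was higher in TBI in most classes, Eno1 was lower in most. Its ratio was below 0 in all 6 classes above, at -0.40 (-0.61 to -0.18) in macrophage-like, -0.52 in dendritic-like, -0.27 (-0.64 to 0.08) in B cell-like, -0.29 (-0.58 to 0.00) in T cell-like, -0.48 (-0.98 to 0.08) in fibroblast-like and -0.15 (-0.56 to 0.27) in endothelial-like cells. In macrophage-like cells it was at 188 CPM in Sham against 142 in TBI. Of 12 classes with at least 100 Eno1 UMIs the ratio was below 0 in 11, the exception being proliferating-like cells at 0.51 (-0.12 to 1.20). The interval of Eno1 was below 0 in only 3 of these 12, and in 4 of all 21 classes. The classes share their 2 libraries, so these signs are not independent. Over the same 12 classes the other 9 enzymes together were higher in TBI in all but the pineal gland-like cells. Over all 21 classes, the other 9 enzymes together were above 0 in 18, with an interval above 0 in 13 and below 0 in 1. Eno1 was set apart for its values in these same data, and leaving it out raises the sum of the rest. With all 10 enzymes the sum was above 0 in 17 classes, with an interval above 0 in 9. The contrast between Eno1 and the others thus follows in part from that choice. The median of all genes was also above 0 in most of the 21 classes. With the copy Eno1b counted in, 10 of the 12 classes were below 0, and choroid plexus-like cells moved from -0.08 to 0.03. Over all 21 classes 17 were below 0 either way, but not the same ones, since the F630028O10Rik-led cluster moved from 0.13 to -0.14. Eno1b alone was higher in TBI in macrophage-like cells, at 9.77 and 18.2 CPM, a ratio of 0.86 (0.07 to 1.81), and in choroid plexus-like cells, at 84.0 and 157 CPM, a ratio of 0.89 (0.31 to 1.55). How reads were divided between Eno1 and Eno1b was not tested.

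**Figure D5:**
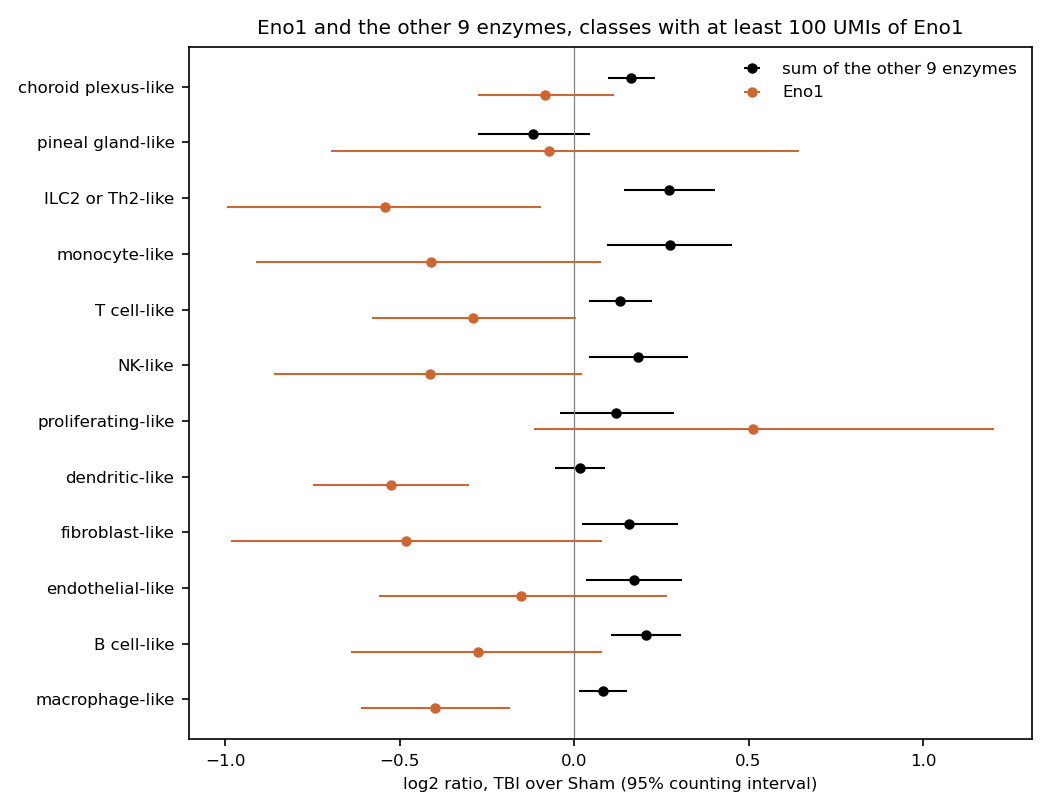
Log2 ratio of TBI over Sham (horizontal axis, 95% counting intervals) for Eno1 (orange) and for the sum of the other 9 enzymes (black) in the 12 classes with at least 100 Eno1 UMIs. Eno1 lies left of 0 in 11 of the 12 classes, and the sum of the others right of 0 in all but the pineal gland-like cells.

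The low Eno1 value was not the same in every macrophage-like cluster. Eno1 was at 231 CPM in Sham against 157 in TBI in the Klra2-led cluster, a ratio of -0.56 (-0.83 to -0.29). It was at 180 and 93.3 in the Ccl8-led cluster, a ratio of -0.94 (-1.77 to -0.14). In the C5ar1-led cluster it was at 123 and 135, a ratio of 0.13 (-0.27 to 0.56). Among the other enzymes, Aldoa was above 0 in 18 of 19 classes with enough UMIs, Ldha in 15 of 16, Pgk1 in 7 of 8, Pkm in 12 of 17 and Gapdh in 9 of 17. The interval was above 0 in 7 classes for Aldoa, in 6 for Ldha and in 3 each for Pgk1, Pkm and Gapdh. It was below 0 in 1 for Ldha and in 3 for Gapdh. Of all genes with enough UMIs, 47.0% to 52.0% were above 0 in the 6 classes above, and 68.2% in the Vwf-led cluster. A shift of 1 gene between the 2 libraries can recur in many classes.

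The unnamed vascular clusters showed larger ratios. In the Cldn5-led cluster, whose leading genes also include Slc38a5 and Gja5, the sum was 1735 CPM (1507 to 1987) in Sham against 2457 (2274 to 2651) in TBI, a ratio of 0.50 (0.28 to 0.73). Of 4 enzymes with enough UMIs, 3 were past the fold upward (Aldoa, Gapdh and Ldha), against 8.85% of all genes. In the Vwf-led cluster the sum was 1075 CPM (896 to 1279) and 1710 (1581 to 1847), a ratio of 0.67 (0.39 to 0.96), and Gapdh, Pkm and Ldha, 3 of 4, were past the fold, against 26.4% of all genes. The median of all genes was itself 0.22 in that cluster and 0.05 in the Cldn5-led cluster. Nuclear genes of oxidative phosphorylation, summed, also had ratios above 0, at 0.39 (0.31 to 0.47) in the Vwf-led and 0.16 (0.09 to 0.24) in the Cldn5-led cluster. Malat1 stood at 22498 CPM in Sham against 14189 in TBI in the Vwf-led cluster, and its part in these ratios was not tested. Apart from these vascular clusters, the Snhg11-led cluster, with 54 Sham and 311 TBI cells, had a ratio of 0.68 (0.28 to 1.13), on 53 Sham UMIs. The sum of oxidative phosphorylation genes had a ratio of 0.34 (0.20 to 0.48) there. With coarser clusters Snhg11 led the fibroblast-like class, and no separate cluster led by it remained.

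Immature B cell-like cells, the Rag1-positive precursors, lay on the other side. The sum was 1707 CPM (1559 to 1865) in Sham against 1424 (1296 to 1561) in TBI, a ratio of -0.26 (-0.45 to -0.07). Of 4 enzymes with enough UMIs, Ldha was past the fold downward, against 4.76% of all genes, at 304 and 209 CPM, a ratio of -0.54 (-1.02 to -0.06).

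In the other named classes with at least 50 cells 6 enzyme ratios were past the fold. In plasmacytoid dendritic-like cells, on 20 Sham and 45 TBI cells, 2 of 4 were downward, against 2.77% of all genes. Gapdh was at 624 and 411 CPM there, a ratio of -0.60 (-1.01 to -0.19), and Pkm at 305 and 202, a ratio of -0.60 (-1.19 to 0.01). In ILC2 or Th2-like cells 1 of 5 was downward, against 2.82% of all genes, and it was Eno1, at 331 and 227 CPM, a ratio of -0.54 (-0.99 to -0.10). Upward there was 1 of 5 in monocyte-like cells, against 6.38% of all genes, where Pkm was at 637 and 974 CPM, a ratio of 0.61 (0.27 to 0.96), on 34 and 42 cells. In NK-like cells 1 of 6 was upward, against 3.81% of all genes, and it was Pgk1, at 119 and 205 CPM, a ratio of 0.78 (0.21 to 1.38). In proliferating-like cells 1 of 6 was upward, against 7.78% of all genes, and it was Eno1. None was past the fold of 9 in choroid plexus-like, 5 in pineal gland-like, 2 in migratory dendritic-like and 1 in pericyte-like cells. No enzyme had enough UMIs in Schwann-like cells.

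The rest of the pathway was read from lists of related genes. Of 20 other glycolytic enzymes, 3 or 4 had enough UMIs in each of the 6 classes and none was past the fold. Gpi1, which follows hexokinase, was at 324 CPM in Sham against 375 in TBI macrophage-like cells, a ratio of 0.21 (0.06 to 0.36), and at 392 and 471 in dendritic-like cells, a ratio of 0.26 (0.10 to 0.42). Of 13 regulators, 6 had enough UMIs in macrophage-like cells and 1, Pfkfb3, the kinase that makes the activator of phosphofructokinase, was past the fold, at 15.0 and 23.3 CPM (ratio 0.61, -0.05 to 1.37). In fibroblast-like cells 4 had enough UMIs, and Hif1a was past it downward, at 146 and 77.2 CPM, a ratio of -0.93 (-1.45 to -0.36). Of 78 nuclear genes of oxidative phosphorylation, 77 had enough UMIs in macrophage-like cells and none was past the fold, with a median of -0.04, and in dendritic-like cells the numbers were 76, 0 and -0.05. In B cell-like cells none of 75 was past it. The calls were 2 upward and 3 downward of 76 in fibroblast-like, 4 upward of 71 in endothelial-like, and 3 upward and 1 downward of 72 in T cell-like cells. Of all genes 7.23% were upward and 9.88% downward in fibroblast-like cells. The shares were 3.85% and 3.80% in endothelial-like and 4.21% and 3.67% in T cell-like cells. Summed, the 78 genes had a ratio of 0.08 (0.04 to 0.12) in fibroblast-like and 0.06 (0.03 to 0.09) in T cell-like cells. It was 0.06 (0.02 to 0.10) in endothelial-like and 0.03 (-0.0001 to 0.06) in B cell-like cells. It was -0.03 (-0.05 to -0.01) in macrophage-like and -0.04 (-0.06 to -0.02) in dendritic-like cells. Of 10 genes of pyruvate entry into mitochondria, 1 to 5 had enough UMIs, and Mpc1 in fibroblast-like and Pdha1 in T cell-like cells were past the fold upward. Of 12 hypoxia targets outside glycolysis, 2 to 4 had enough UMIs, and Ddit4 was past the fold downward in fibroblast-like and B cell-like cells.

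The glucose transporter gene Slc2a1, known from the blood-brain barrier, had its highest level in the Cldn5-led cluster, at 567 CPM in Sham against 1366 in TBI, a ratio of 1.26 (0.89 to 1.66). With finer clusters, Cldn5 and Slc2a1 were among the leading genes of a cluster of 13 Sham and 42 TBI cells. Gja5 was among those of another, with 47 and 90 cells. The part of such a mix in this ratio, and in the summed ratio of the Cldn5-led cluster, was not tested. In macrophage-like cells Slc2a1 was at 15.0 and 12.2 CPM. None of the 8 transporter genes had 100 UMIs in B cell-like, T cell-like, dendritic-like or endothelial-like cells.

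Over the 21 classes the genes most like the summed enzymes in log2 CPM, outside the metabolic lists, were Cox20 (Pearson r = 0.91), Arl6ip1 (0.90) and Elob (0.89). The sum of nuclear oxidative phosphorylation genes gave r = 0.91, Malat1 -0.68, ribosomal protein genes 0.38, the median UMIs per cell 0.13 and the hypoxia targets outside glycolysis -0.02. The value for depth compares classes and not cells within a class. B cell-like cells of 500 to 1000 UMIs had 712 CPM in Sham and 1032 in TBI, and those of 4000 to 8000 UMIs 1880 and 2225. At the same depths macrophage-like cells had 1730 and 2133, then 1625 and 1661. For single enzymes the closest genes were Elovl7 for Hk1 (0.84), Csf2ra for Hk2 (0.85), Cyb5d1 for Pfkl (0.77), Herc3 for Pfkp (0.73) and Usp50 for Aldoa (0.87). They were Elob for Gapdh (0.93), Cycs for Pgk1 (0.91), Hprt for Eno1 (0.83), Cox20 for Pkm (0.89) and Anxa11 for Ldha (0.86). Among the enzymes, Eno1 and Pkm were most alike (0.88), and Hk2 had values between -0.47 and 0.08 with the other 9. The classes share libraries and scaling, and choroid plexus-like and pineal gland-like cells weigh heavily, so these correlations are descriptions.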

How the data were processed

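The authors deposited UMI counts per gene and barcode, made with Cell Ranger on the mm10 build from 10x Genomics 3′ libraries. Per the labels the version was 2.1.1, the matrix header gives 3.1.0 and the methods name an earlier one; which annotation release was used is not stated in those sources. No annotation of cells was used.

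Cells with 150 to 5000 genes, at most 20% mitochondrial and at most 5% hemoglobin UMIs were kept, as the methods state. Counts were scaled to 10000 per cell; 2000 variable genes without metabolic genes, 20 principal components, 20 neighbours and Leiden clustering (leidenalg 0.10.2, resolution 0.8, seed 1) followed. Naming a cluster took 3 or more listed markers among its 50 leading genes. Doublets were predicted by simulation (33 in Sham, 114 in TBI) and kept. UMIs were summed per class and library. Ratios had 0.5 added to each sum, with exact 95% intervals (scipy 1.17.1). With 1 library per group no test was made. A floor of 3 counts was used for counts of 0. The ratio step was tested on simulated data.

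All 10 enzymes are named, with genes of the lists and, for each enzyme, the genes most correlated over classes; of the 3 most correlated, the first is given for each single enzyme. The enzymes and lists were chosen with earlier results of these data known. Cell filters, doublets, resolution, scaling, depth and UMI minimum were varied.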

Additional observations from a re-analysis of the deposited data

Results flagged for a closer look

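Ratios of TBI over Sham were compared between classes where a gene past the fold had counting intervals on opposite sides of 0, or where the sums differed in this way and by at least 0.25 each. These differences were not tested, since each class has 1 library per group. The log2 ratio of Gapdh in the Vwf-led cluster minus that in plasmacytoid dendritic-like cells was 1.63, and for the Cldn5-led cluster it was 1.38. The ratio of Ldha in B cell-like cells minus that in immature B cell-like cells was 1.04, and for the Vwf-led cluster it was 1.74. The ratio of the summed enzymes minus that in immature B cell-like cells was 0.94 for the Snhg11-led cluster, 0.93 for the Vwf-led cluster and 0.76 for the Cldn5-led cluster.

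The barcodes past the hemoglobin limit, which were let in only under the alternative with no hemoglobin limit, also held the enzymes. Their sum was 676 CPM of the UMIs that were not hemoglobin in 604 Sham barcodes and 1148 CPM in 429 TBI barcodes. In these barcodes Bpgm, the enzyme that makes the red-cell metabolite 2,3-bisphosphoglycerate, held 10126 Sham and 4741 TBI UMIs.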

How the results depend on the processing

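No paired analysis was possible because each group has 1 library and the groups share only replicate number 1, and no replicate could be left out. Ratios of TBI over Sham were recomputed under the alternatives only in the 6 named classes with the most cells. There, no enzyme ratio past the fold and no sum with an interval on 1 side of 0 changed direction. The ratios of the other classes, among them those flagged above, were not recomputed outside these 6. The summed ratio in dendritic-like cells was -0.04, and -0.14 as a mean over cells of counts per 10000, which weights shallow cells like deep ones. Of the 44 enzyme ratios in 6 classes, 4 were past the fold upward, and 1 was with at least 500 genes per cell and 2 with at least 1000 UMIs per cell. Fewer ratios had enough UMIs under these 2 limits, 42 and 43. The upward count rose to 6 of 44 as a mean over cells, and to 6 of 44 without the 3 cells with most UMIs of the gene. It was 5 of 42 with finer clusters, 5 of 56 with a minimum of 10 UMIs in the class and 6 of 59 with no minimum. Under the other alternatives it was 3 or 4. Downward there was 1, and there were 2 with at least 500 genes, with no hemoglobin limit, without predicted doublets or with at least 1000 UMIs per cell, and 3 with a minimum of 10 UMIs in the class or with no minimum. The share of all genes past the fold also moved, from 4.23% upward and 4.21% downward to 11.1% and 6.97% as a mean over cells, 14.5% and 14.2% with a minimum of 10 UMIs and 22.8% and 21.2% with none. In monocyte-like cells 3 enzymes were at 2 or more times the median of other classes, and 1 with cells assigned by their own markers. The cause of these moves was not tested. Not every ratio kept enough UMIs under each alternative, and the ranges cover only those in which it did. The ratio of Hk2 in macrophage-like cells ran from 0.61 to 1.13, and of Ldha in B cell-like cells from 0.42 to 0.54. Pfkl in endothelial-like cells ran from 0.76 to 1.12, and Pfkp in dendritic-like cells from 0.30 to 0.66. Eno1 in dendritic-like cells ran from -0.57 to -0.45. Eno1 in fibroblast-like cells ran from -0.70 to -0.06, and Ldha there from -0.27 to 0.58, which crosses 0. Of 120 shares of cells with a UMI, 107 moved beyond their interval between thinned and unthinned cells. Removing the barcodes found in both libraries, an alternative chosen after seeing the data, left the counts at 4 and 1. Depth limits the low enzymes: Hk1 and Hk2 reached 100 UMIs in 2 classes each.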
